A study of Homo sapiens with 16 samples.

Results

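The apolipoprotein L genes APOL1, APOL2, APOL3, APOL4 and APOL6 were followed across kidney cancer cells that carry or lack SETD2, the methyltransferase that places trimethylation on lysine 36 of histone H3. The 5 genes were chosen by name from the 60606 gene names of the count files, with earlier results of these libraries in view. They are 5 of the 6 APOL genes listed there. The sixth, APOL5, had a count of 1 over all 16 libraries. Because the measured values that led to the choice are not recorded, every comparison below may have been among them, and the changes of the 5 genes are given as descriptions without a p-value for any of them.

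Apolipoproteins L are amphipathic, membrane-active proteins. APOL1 is secreted into the blood on high-density lipoprotein particles, where it kills trypanosomes, and inherited variants of it are linked to kidney disease. The other members lack that secretory role and stay inside cells. Several of the genes, APOL3 among them, are induced by interferon, and APOL3 is known to disrupt the membranes of bacteria in the cytosol. APOL6 carries a region resembling the BH3 motif of cell death regulators and can cause cell death when overexpressed.

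Polyadenylated RNA had been sequenced from 16 libraries of a pair of established clear cell renal carcinoma lines, 786-O and A498. The 12 libraries of 786-O formed 4 groups of 3: SETD2 KO cells in 100 nM A1331852, an inhibitor of the anti-apoptotic protein BCL-XL, SETD2 WT cells in the same dose of A1331852, SETD2 KO cells in the vehicle DMSO and SETD2 WT cells in DMSO, all harvested after 72 h. The untreated A498 libraries were 2 with the label SETD2 deficient and 2 with the label SETD2 add-back. The labels do not say how SETD2 was removed or restored, whether a population was a single clone, or whether replicates were separate cultures, so every test reflects the spread among the libraries alone, and that spread may be technical. The labels give 3 batches. The 6 A1331852 libraries were in batch 1 together with the third DMSO replicate of either genotype, the remaining 4 DMSO libraries made up batch 2, and A498 was batch 3. Treatment and batch were therefore partly confounded.

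Library totals ran from 14172118 to 36037616 counts. SETD2 transcripts averaged 42.8 ± 12.1 CPM in KO and 67.2 ± 3.89 CPM in WT cells under A1331852, and 30.0 ± 1.09 CPM in KO and 69.1 ± 5.12 CPM in WT cells under DMSO (SD, n = 3 each). CPM here are counts relative to a common library size, after scaling by the trimmed mean of M-values. In A498 the SETD2 transcript did not separate the labels, with 40.6 and 58.5 CPM in the libraries labelled deficient and 44.0 and 52.8 CPM in those labelled add-back (log2 change 0.00 ± 0.17, edgeR adjusted p = 0.991), so directions in A498 rest on the labels alone. Of 8 markers of renal carcinoma lines, 7 were above 1 CPM in every group, and CA9 was not. Endothelial markers summed to at most 0.419 CPM in any library, and NPHS1, which encodes the podocyte protein nephrin, did not exceed 0.318 CPM in any library, although 3 of the 5 podocyte markers in 786-O and 2 in A498 were above 1 CPM.

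All 5 genes lie on chromosome 22 (GRCh38). APOL6 occupies 35648446 to 35668404 on the plus strand. APOL3 (36140329 to 36166177), APOL4 (36189124 to 36204840) and APOL2 (36226209 to 36239954) follow on the minus strand, and APOL1 (36253071 to 36267530) closes the group on the plus strand. The span covers 619 kb, of which 472 kb separate APOL6 from APOL3. No annotated gene of either strand overlaps any of the 5. Stretches of 50 bases found also in transcripts of other genes made up 3.91% of the distinct stretches of APOL1 transcripts, 1.64% for APOL2, 0.14% for APOL3, 0.696% for APOL4 and 0.238% for APOL6. Among APOL genes, APOL1 shared such stretches with APOL2 and with APOL3, and no other pair shared any.

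The members differed in level by several orders of magnitude. Per kilobase of exon, APOL1 was the 71st to 96th highest of 17868 genes in the 4 groups of 786-O, and the 297th and 458th in A498 deficient and add-back cells. APOL1 made up 70.3% to 86.3% of the summed per-kilobase level of the 5 genes across libraries, and APOL2 12.7% to 25.2%. APOL6 made up 0.605% to 5.73% and APOL3 0.0149% to 1.15%. The 5 genes together therefore tracked APOL1, with a summed level of 326 ± 52.3 CPM per kilobase in KO and 469 ± 101 in WT cells under A1331852, and 398 ± 33.3 in KO and 461 ± 83.6 in WT cells under DMSO (SD, n = 3 each). In A498 the sum was 159 ± 25.6 in deficient and 104 ± 3.18 CPM per kilobase in add-back cells (SD, n = 2 each).

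**Figure D1:**
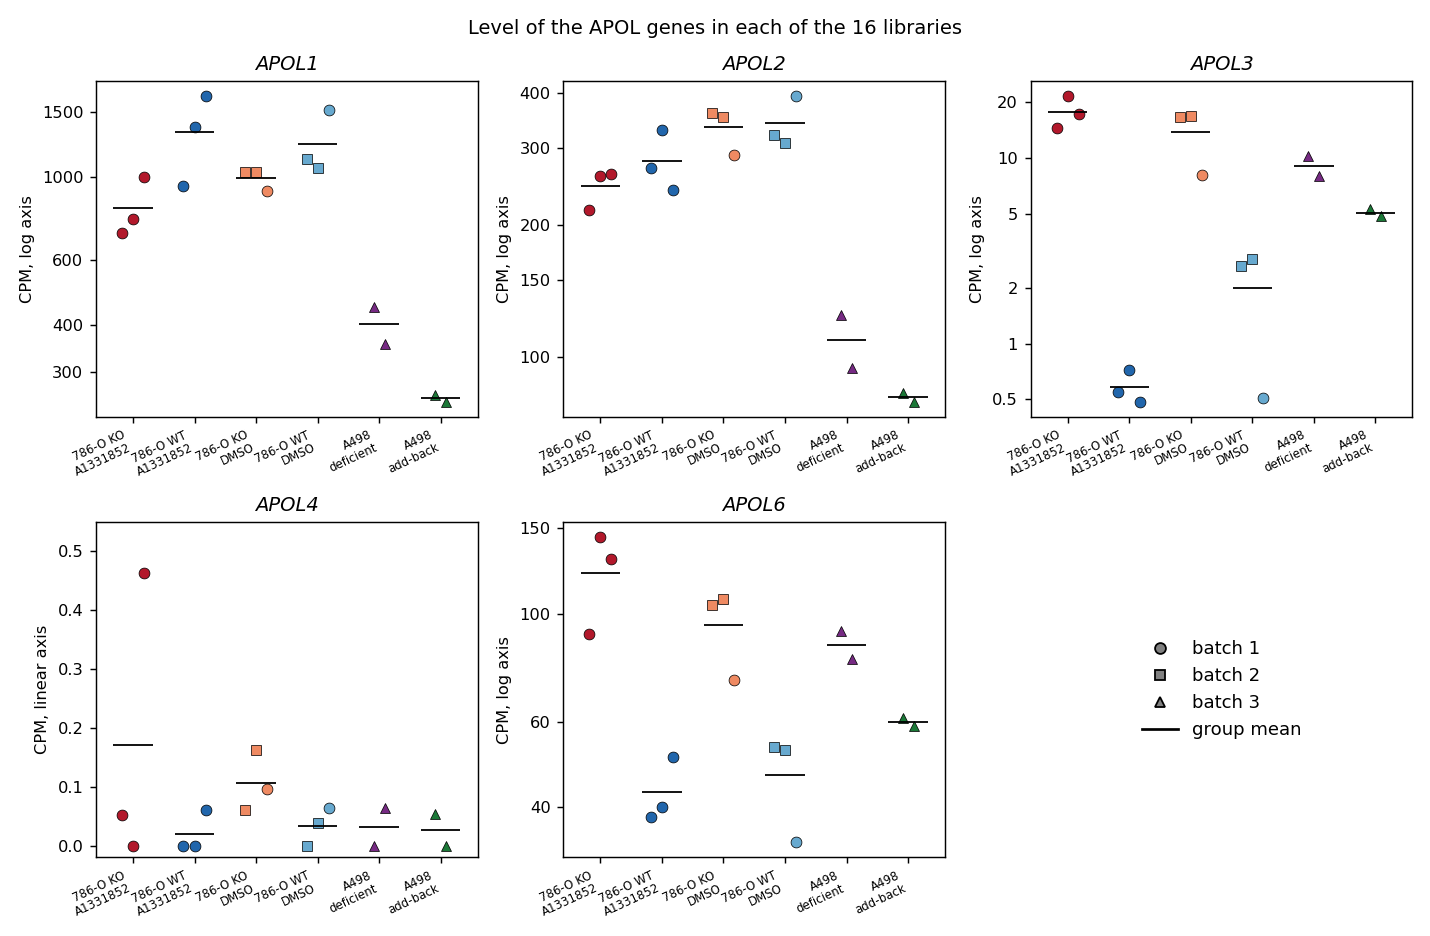
Level of each APOL gene in each library, in CPM, on a log axis for all but APOL4, which has a linear axis; points are libraries, their shape gives the batch and the line the group mean. APOL3 and APOL6 were higher in every 786-O KO library than in any 786-O WT library, while the KO libraries of APOL1 and APOL2 lay at or below the level of the WT libraries or among them.

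APOL3 showed the widest range. Under A1331852 it was at 14.5, 21.6 and 17.4 CPM in KO libraries, against 0.549, 0.723 and 0.487 CPM in WT libraries. Under DMSO it was at 16.7, 16.8 and 8.14 CPM in KO libraries, against 2.62, 2.87 and 0.506 CPM in WT libraries. The genotypes did not overlap under either treatment, and the KO library with the lowest value still stood above the WT library with the highest. The raw counts behind the A1331852 groups were 961 over the KO and 34 over the WT libraries, a ratio per scaled library of 29.9 with an exact 95% interval of 21.3 to 43.5, which covers counting error only. In these bulk samples, fewer cells expressing a gene and less RNA per cell cannot be told apart.

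In A498 the gap in APOL3 was smaller at both ends. The deficient mean of 9.14 CPM lay below the 786-O KO means of 17.9 (A1331852) and 13.9 CPM (DMSO). The add-back mean of 5.08 CPM lay above the 786-O WT means of 0.586 (A1331852) and 2.00 CPM (DMSO). The level was 10.2 and 8.04 CPM in deficient libraries, against 5.30 and 4.87 CPM in add-back libraries. The order of the 6 groups by mean, from high to low, was 786-O KO in A1331852, 786-O KO in DMSO, A498 deficient, A498 add-back, 786-O WT in DMSO and 786-O WT in A1331852. Neighbours in that order overlapped in range except A498 deficient above A498 add-back and A498 add-back above 786-O WT in DMSO.

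APOL6 followed the same order of groups, with a narrower range. Under A1331852 it was at 91.0, 144 and 130 CPM in KO libraries, against 38.2, 40.1 and 50.8 CPM in WT libraries. Under DMSO it was at 104, 107 and 73.2 CPM in KO libraries, against 53.3, 52.5 and 33.9 CPM in WT libraries. No KO library of 786-O was as low as any WT library. In A498, APOL6 was at 92.3 and 80.6 CPM in deficient and at 61.2 and 58.9 CPM in add-back libraries. With CPM on the raw library total the means of the lowest groups, 786-O WT in A1331852 and in DMSO, changed places.

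APOL1, the secreted member, lay the other way round in 786-O. Under A1331852 it was at 708, 771 and 1003 CPM in KO libraries, against 947, 1365 and 1653 CPM in WT libraries, and the highest KO library lay above the lowest WT library. Under DMSO it was at 1036, 1033 and 919 CPM in KO libraries, against 1119, 1060 and 1515 CPM in WT libraries, with no overlap and a narrow gap. In A498 APOL1 was higher in the libraries labelled deficient, at 447 and 358 CPM, against 261 and 250 CPM in add-back libraries. Every 786-O library was above every A498 library.

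APOL2, an intracellular member, was nearly level between the genotypes of 786-O. It averaged 246 ± 25.6 CPM in KO and 280 ± 45.2 CPM in WT cells under A1331852, and 334 ± 38.9 CPM in KO and 342 ± 46.0 CPM in WT cells under DMSO (SD, n = 3 each). The ranges overlapped in both treatments. In A498 it was at 124 and 94.4 CPM in deficient and at 82.6 and 79.2 CPM in add-back libraries. In the order of means each of its 4 groups of 786-O overlapped the next of them, and the 2 DMSO groups changed places with CPM on the raw library total.

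APOL4 was close to the limit of detection and did not pass the low-count filter of either line. Its counts summed to 8 in KO and 1 in WT libraries under A1331852, and 7 of the 8 came from KO replicate 3. They summed to 9 in KO and 2 in WT libraries under DMSO, where each KO library had at least 2 counts and no WT library more than 1. In A498 each group had 1 count. The ratio per scaled library was 8.48 under A1331852 (exact 95% interval 1.14 to 376) and 3.85 under DMSO (0.797 to 36.6), and these intervals cover counting error only. For APOL5, the floor of 3 counts over a group stood at 0.0354 to 0.0959 CPM.

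The first comparison asked how KO cells differed from WT cells of 786-O under the BCL-XL inhibitor. APOL3 was 29.9-fold and APOL6 2.83-fold higher in KO cells, and APOL1 was 1.59-fold lower. The log2 changes in edgeR were 4.90 ± 0.29 for APOL3, 1.5 ± 0.17 for APOL6, -0.67 ± 0.20 for APOL1 and -0.18 ± 0.15 for APOL2 (± SE, here and below). Of the 5 genes, 4 were tested and 3 had an adjusted p under 0.05, with APOL3 and APOL6 higher and APOL1 lower. Over all 16260 genes tested, 28.2% had such a call, 13.2% higher and 15.0% lower, and the median log2 change was -0.01, against 0.66 for the 4 members. The libraries of KO and WT cells did not overlap for 2 of the 4 members, where 34.7% of all genes showed no overlap. As the choice of the genes may rest on this contrast, nothing is read from these counts. The call of APOL1 was lost without KO replicate 1, KO replicate 2, WT replicate 2 or WT replicate 3, and its log2 change lay between -0.48 and -0.85 over all single-library omissions. In batch 1 alone and without a batch term APOL1 was not called either, at a log2 change of -0.67 ± 0.23 in both.

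In DMSO the same genes stood apart by less. APOL3 was 7.36-fold and APOL6 2.04-fold higher in KO cells, with log2 changes of 2.88 ± 0.25 and 1.03 ± 0.17. APOL1 had a log2 change of -0.30 ± 0.20 and APOL2 of -0.03 ± 0.15. Of the 4 members tested, 2 were called, APOL3 and APOL6, both higher. Libraries did not overlap for 3 of the 4, where 31.0% of all genes showed no overlap. Of all genes tested, 18.5% were called, 8.29% higher and 10.2% lower, and with replicate numbers as a block within treatments 4646 genes were called, against 3001 without it.

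The DMSO difference was not the same in both batches. For APOL3 the log2 ratio of KO to WT was 4.01 in batch 1, with 1 library each, and 2.61 in batch 2, with 2 libraries each. APOL6 gave 1.11 in batch 1 and 1.00 in batch 2. APOL1 gave -0.72 in batch 1 and -0.08 in batch 2, and APOL2 changed sign, with -0.44 in batch 1 and 0.18 in batch 2. Among WT DMSO libraries APOL3 was 5.43-fold higher in batch 2 than in batch 1, and among KO DMSO libraries 2.06-fold higher. The part of batch in these values was not tested.

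Markers of leukocytes moved with genotype in 786-O. Their summed level was 159 to 160 CPM in KO and 17.96 to 31.8 CPM in WT libraries under A1331852, and 73.8 to 157 CPM in KO and 18.1 to 80.2 CPM in WT libraries under DMSO. Nearly all of it was LCP1, an actin-bundling protein, which reached 159 CPM. CD3E, which defines T cells, was at 0 in all 4 groups of 786-O, and PTPRC, which marks all leukocytes, never exceeded 0.324 CPM in any library. CD14 reached at most 1.43 CPM. In A498 the summed level was 1.61 to 2.03 CPM in deficient and 1.05 to 2.11 CPM in add-back libraries.

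**Figure D2:**
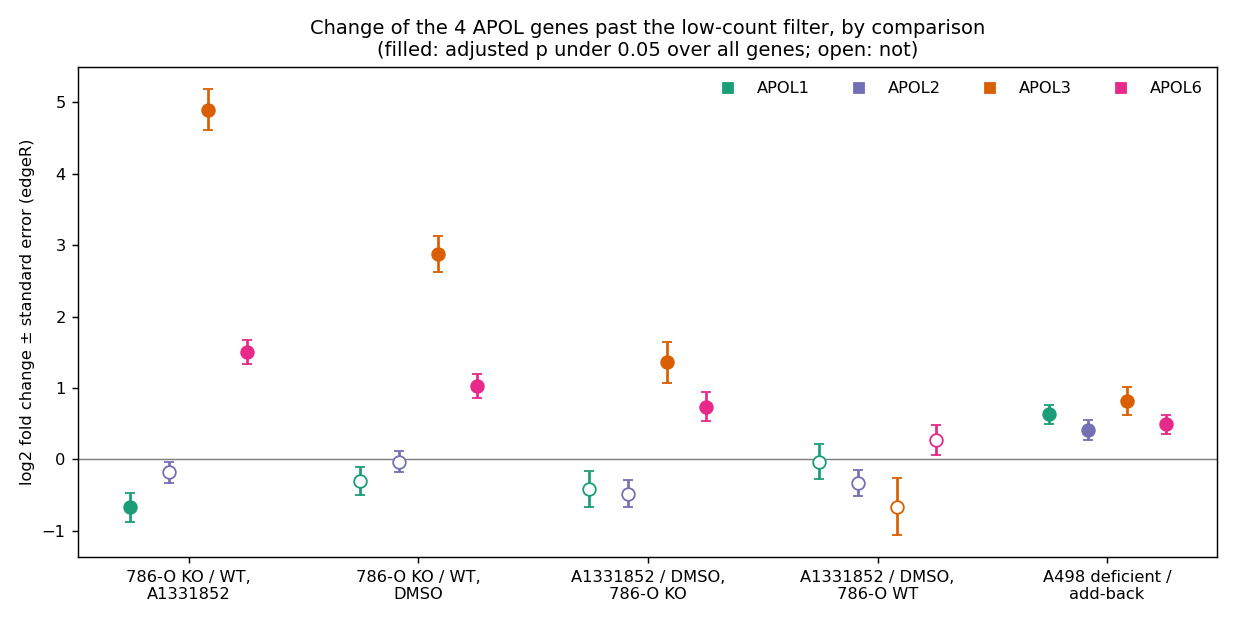
Log2 fold change with standard error (edgeR) of the 4 APOL genes that passed the low-count filter, in 5 comparisons; filled points had an adjusted p under 0.05 over all genes and open points did not. APOL3 stood at 4.90 and 2.88 for KO against WT in A1331852 and in DMSO, and APOL1 and APOL2 were above 0 in A498 alone.

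The next comparison took A1331852 against DMSO within each genotype. In KO cells APOL3 was 2.56-fold higher and APOL6 1.67-fold higher with A1331852, with log2 changes of 1.36 ± 0.29 and 0.74 ± 0.20. APOL1 and APOL2 had log2 changes of -0.41 ± 0.25 and -0.48 ± 0.19. APOL3 and APOL6 were called, 2 of the 4 members tested, both higher, where 13.5% of all genes were called, 6.46% higher and 7.08% lower. Neither was called in a fit of batch 1 alone, in which the log2 changes were 1.11 ± 0.34 and 0.71 ± 0.31, nor without a batch term, in which they were 0.41 ± 0.40 and 0.40 ± 0.22. Without KO DMSO replicate 3 the log2 change of APOL3 was 2.48 ± 0.46, and over the other single-library omissions it was between 1.11 and 1.49. The call of APOL6 was also lost without KO A1331852 replicate 2 or 3 or without any of the 6 DMSO libraries.

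In WT cells none of the 4 members was called for A1331852 against DMSO by edgeR, 0 had an unadjusted p under 0.05 and DESeq2 called 0 as well. The log2 changes were -0.03 ± 0.24 for APOL1, -0.33 ± 0.18 for APOL2, -0.66 ± 0.40 for APOL3 and 0.27 ± 0.21 for APOL6. The value of APOL3 depended on the DMSO libraries and the batch term, with 0.21 ± 0.51 in batch 1 alone, 0.21 ± 0.46 without KO DMSO replicate 3, -1.20 ± 0.37 without WT DMSO replicate 3 and -1.74 ± 0.51 without a batch term, none of them called. Over all genes only 0.141% were called, 0.0369% higher and 0.105% lower. Within batch 1, APOL3 in WT cells had 0.549, 0.723 and 0.487 CPM with A1331852, against 0.506 CPM in the single DMSO library. In KO cells of that batch it had 14.5, 21.6 and 17.4 CPM with A1331852, against 8.14 CPM with DMSO.

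The difference between these responses, KO minus WT, was 2.02 ± 0.39 on the log2 scale for APOL3 and 0.47 ± 0.23 for APOL6. It was -0.37 ± 0.29 for APOL1 and -0.15 ± 0.22 for APOL2. No member was called by edgeR, although 1, APOL3, had an unadjusted p under 0.05. Of all genes, 0.295% were called, 0.203% with a higher and 0.0923% with a lower response in KO cells. APOL3 was called once replicate numbers entered as a block within treatments (2.08 ± 0.36), a fit that called 294 genes in all, against 48 without the block. It was also called by DESeq2 (2.01 ± 0.45), without the low-count filter, and without WT A1331852 replicate 3, KO DMSO replicate 3 or WT DMSO replicate 3. Batch 1 alone gave 0.91 with no call.

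In A498, which was untreated, all 4 members tested were higher in the cells labelled deficient than in those labelled add-back. APOL3 was 1.76-fold higher (log2 0.82 ± 0.20), APOL1 1.54-fold (0.63 ± 0.13), APOL6 1.41-fold (0.49 ± 0.13) and APOL2 1.32-fold (0.41 ± 0.14). All 4 were called, where 30.2% of the 15424 genes tested were called, 15.1% in each direction. No deficient library was as low as any add-back library for any of the 4, where 66.1% of all genes tested showed no overlap in one direction or the other with 2 libraries against 2. Leaving out 1 library at a time kept between 1 and 4 of the calls, and over all genes 4657 calls became 2303 without add-back replicate 1 and 2246 without add-back replicate 2. APOL2 lost its call without deficient replicate 1 or either add-back replicate, APOL6 without either add-back replicate and APOL3 without add-back replicate 2, in fits where the lone library is assumed to vary like the other group. APOL2 was not called without the low-count filter either, at 0.42 ± 0.15.

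Between the lines, the difference of the SETD2 contrasts was set as A498 deficient over add-back minus 786-O KO over WT in DMSO. It was 0.95 ± 0.30 for APOL1 and -2.02 ± 0.36 for APOL3, both called, 0.47 ± 0.24 for APOL2 and -0.50 ± 0.24 for APOL6. Of the 17868 genes tested, 13.2% were called, 7.10% higher and 6.12% lower in A498. SETD2 itself gave 1.24 ± 0.29 in this test (edgeR adjusted p = 0.0106). The call of APOL1 was lost with RLE size factors, at 0.93 ± 0.31, and in 13 of 16 omissions of a single library, over which the difference lay between 0.70 and 1.10. Without a batch term neither gene was called, at 0.98 ± 0.33 for APOL1 and -1.90 ± 0.61 for APOL3. Line, batch and treatment label differ together between these contrasts and cannot be told apart.

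**Figure D3:**
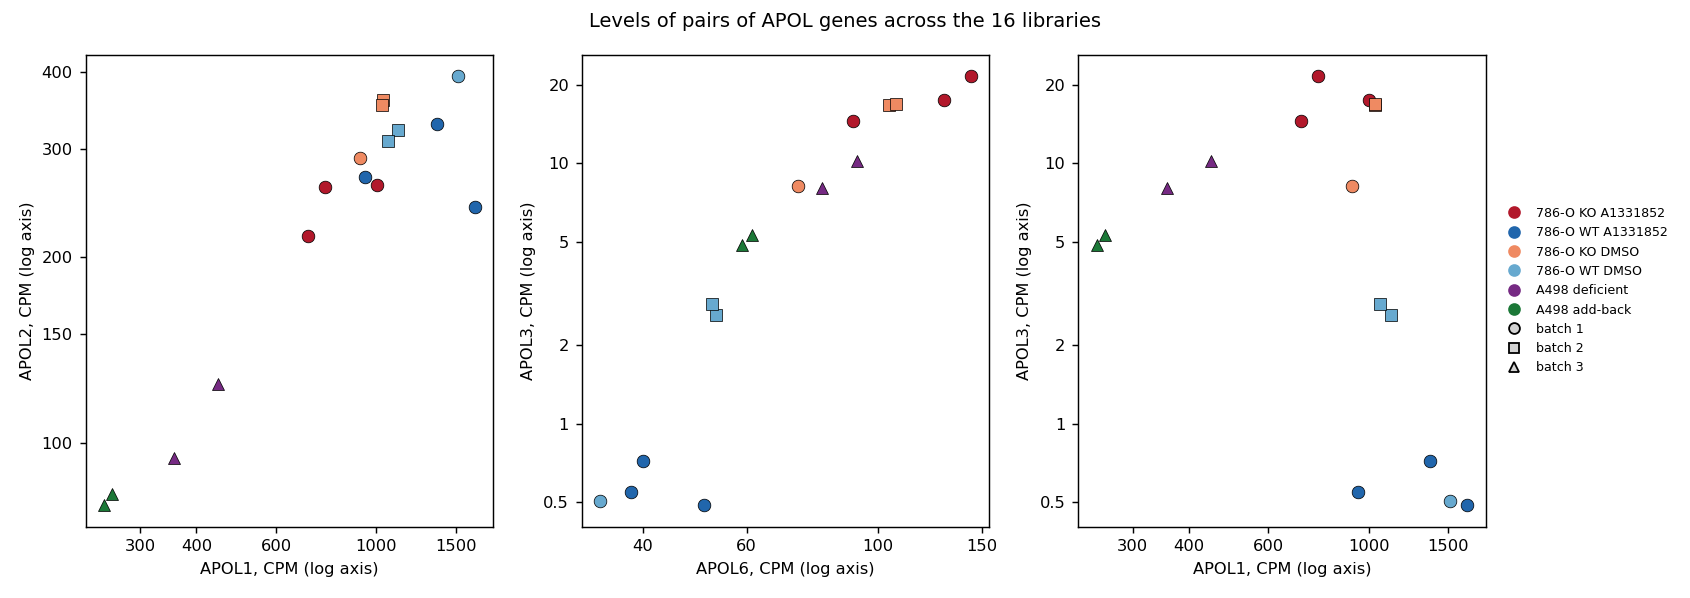
CPM of pairs of APOL genes in the 16 libraries on log axes, coloured by group, with the batch as point shape. APOL3 and APOL6 lay along one band, with Pearson r of 0.939 over all libraries; APOL1 and APOL2 did so mainly because both were lower in A498.

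Across libraries the levels of APOL3 and APOL6 ran alike, also within 786-O, while those of APOL1 and APOL2 did so much less within 786-O. On log2 CPM, Pearson r was 0.939 between APOL3 and APOL6 over the 16 libraries and 0.95 over the 12 of 786-O. Between APOL1 and APOL2 it was 0.938 over the 16 but 0.448 over the 12. APOL1 and APOL3 gave -0.402 over the 16 and -0.74 over the 12. These values describe libraries that share a line, a genotype and a batch, and carry no test.

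The genes with the most similar profile were sought among 14240 genes averaging 1 CPM or more. For APOL3 they were PSME2, a subunit of a proteasome activator (r = 0.962), CPPED1, IFI35, RTN1 and TRIM68 (r = 0.94). PSME2 stood at 116 ± 10.2 CPM in KO and 50.7 ± 6.64 CPM in WT cells under A1331852, and at 102 ± 7.58 CPM in KO and 69.3 ± 18.4 CPM in WT cells under DMSO (SD, n = 3 each). For APOL6 they were NUB1 (r = 0.956), the transcription factor IRF7 (0.953), UBE2L6, an enzyme that conjugates ISG15 (0.939), APOL3 itself and TRIM21, a ubiquitin ligase that binds antibodies inside cells (0.935). APOL6 was the only gene with another member among its nearest 5.

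For APOL1 the nearest profiles were RNASET2, a secreted ribonuclease (r = 0.991), CCDC106, SPINT2, LPCAT1 and FNDC4. RNASET2 averaged 125 ± 29.2 CPM in KO and 310 ± 156 CPM in WT cells under A1331852, and 35.4 ± 9.34 CPM in A498 deficient and 9.98 ± 0.647 CPM in add-back cells. Over the 786-O libraries alone its r with APOL1 was 0.962. For APOL2 they were AGAP9 (r = 0.982), UGT1A1, UGT1A6, SPPL2B and CSRP1. Within 786-O these 5 gave 0.723 to 0.837, so the likeness to APOL2 rested in part on the gap between the lines.

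Genes that carry and shape interferon signals, 17 in all, were tested beside the members. This list and those of GTPases and other apolipoproteins below were also chosen with earlier results of these libraries known. Their counts and p-values are therefore descriptions and no independent support. In KO against WT cells under A1331852, 8 rose and 3 fell, 11 of 17 called beside 28.2% of all genes, with a median log2 change of 0.47 over the 17. IRF7, the transcription factor that drives type I interferon genes, rose by 2.88 ± 0.46 (edgeR adjusted p = 0.000817). IRF1 rose by 1.03 ± 0.13 (adjusted p = 0.000154), USP18, which restrains the receptor, by 1.47 ± 0.26 (adjusted p = 0.00185) and JAK2 by 0.84 ± 0.17 (adjusted p = 0.00385), all by edgeR. The receptor subunits IFNAR1 (-0.33 ± 0.10, edgeR adjusted p = 0.0313) and IFNAR2 (-0.42 ± 0.14, edgeR adjusted p = 0.0449) and the kinase JAK1 (-0.72 ± 0.16, edgeR adjusted p = 0.00593) fell. With single libraries left out, 7 to 9 of the list were called higher and 1 to 3 lower.

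Under DMSO, 3 of the 17 interferon signalling genes rose in KO cells, IRF7, IRF2 and TYK2, and IFNAR2 fell, so that 4 of 17 were called beside 18.5% of all genes. IRF7 rose by 1.89 ± 0.44 (edgeR adjusted p = 0.0113), but was not called without KO DMSO replicate 3, WT DMSO replicate 1 or WT DMSO replicate 3, where it lay between 1.81 and 1.86. IRF2 and TYK2 lost their calls when any 1 of the 6 DMSO libraries was left out. For A1331852 against DMSO, 4 rose and 1 fell in KO cells, 5 of 17 called beside 13.5% of all genes, and 0 were called in WT cells by edgeR, where 3 had an unadjusted p under 0.05. IRF1 rose by 1.02 ± 0.16 in KO cells (edgeR adjusted p = 0.00255), at 83.6, 91.9 and 91.7 CPM with A1331852, against 67.3, 68.4 and 42.9 CPM with DMSO. In batch 1 alone the log2 change was 1.03, without a call, in a fit that called 85 of all genes, and without a batch term it was 0.63, without a call. For the same comparison in KO cells, IRF2 and USP18 each lost their calls in 9 of 18 alternatives and SOCS1 in 3. Without WT DMSO replicate 3, only 1 of the 17 was called there. In the difference of responses 0 of the 17 were called, 4 had an unadjusted p under 0.05, and 2 were called with the block within treatments.

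In A498, 2 of the 17 rose in the deficient libraries and 2 fell, 4 of 17 called beside 30.2% of all genes. IRF7 rose by 1.18 ± 0.16 (edgeR adjusted p = 0.000109). The receptor subunit IFNGR2 fell by 0.92 (adjusted p = 0.000104) and the inhibitor SOCS3 by 0.79 (adjusted p = 0.00195), both by edgeR. Between the lines, JAK1 alone was called, 1 of 17 beside 13.2% of all genes, with a difference of 0.82 ± 0.25 (edgeR adjusted p = 0.0427). That call was lost in 13 of 21 alternatives, where the difference lay between 0.59 and 0.85.

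The interferon-inducible GTPases include the guanylate-binding proteins, which like APOL3 act on membranes around bacteria. Of the 9 listed, 6 were tested in each line. Under A1331852, 4 rose in KO against WT cells and 0 fell, 4 of 6 called beside 28.2% of all genes, with a median log2 change of 1.18 over the 6. GBP5 rose by 4.85 ± 0.64 (edgeR adjusted p = 0.000255), GBP4 by 2.36 ± 0.34 (adjusted p = 0.000475), GBP1 by 1.52 ± 0.29 (adjusted p = 0.00238) and GBP3 by 0.85 ± 0.20 (adjusted p = 0.0081). GBP1 had 74.0, 106 and 63.1 CPM in KO and 32.7, 38.0 and 14.5 CPM in WT libraries, with no overlap.

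Under DMSO, edgeR called 0 of the 6 GTPases for KO against WT, beside 18.5% of all genes, and 0 had an unadjusted p under 0.05. The median log2 change over the 6 was 0.28, and the largest was 1.15 ± 0.57 for GBP5. With A1331852 against DMSO in KO cells, GBP4 rose by 2.05, GBP5 rose by 3.45 and GBP2 fell by 1.60, 3 of 6 called by edgeR beside 13.5% of all genes. In batch 1 alone they stood at 1.78, 3.46 and -1.13 and were not called. The call of GBP2 was lost in 9 of 18 alternatives, where it lay between -1.74 and -0.90. Those of GBP4 and GBP5 were each lost in 3 of 18, GBP4 lying between 0.92 and 1.78 there. Without WT DMSO replicate 3, 0 of the GTPases were called for A1331852 against DMSO in KO cells. In WT cells 0 were called, with 1 at an unadjusted p under 0.05. In the difference of responses 0 were called, 3 had an unadjusted p under 0.05, and 3 were called with the block within treatments. In A498, GBP4 rose by 2.92 ± 0.32 (edgeR adjusted p = 1.19e-05) and GBP1 by 1.04 ± 0.14 (adjusted p = 8.77e-05) in deficient cells, 2 of 6 called beside 30.2% of all genes. GBP4 was the only 1 of 8 tested that differed between the lines, by 2.65 ± 0.51 (edgeR adjusted p = 0.00318).

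**Figure D4:**
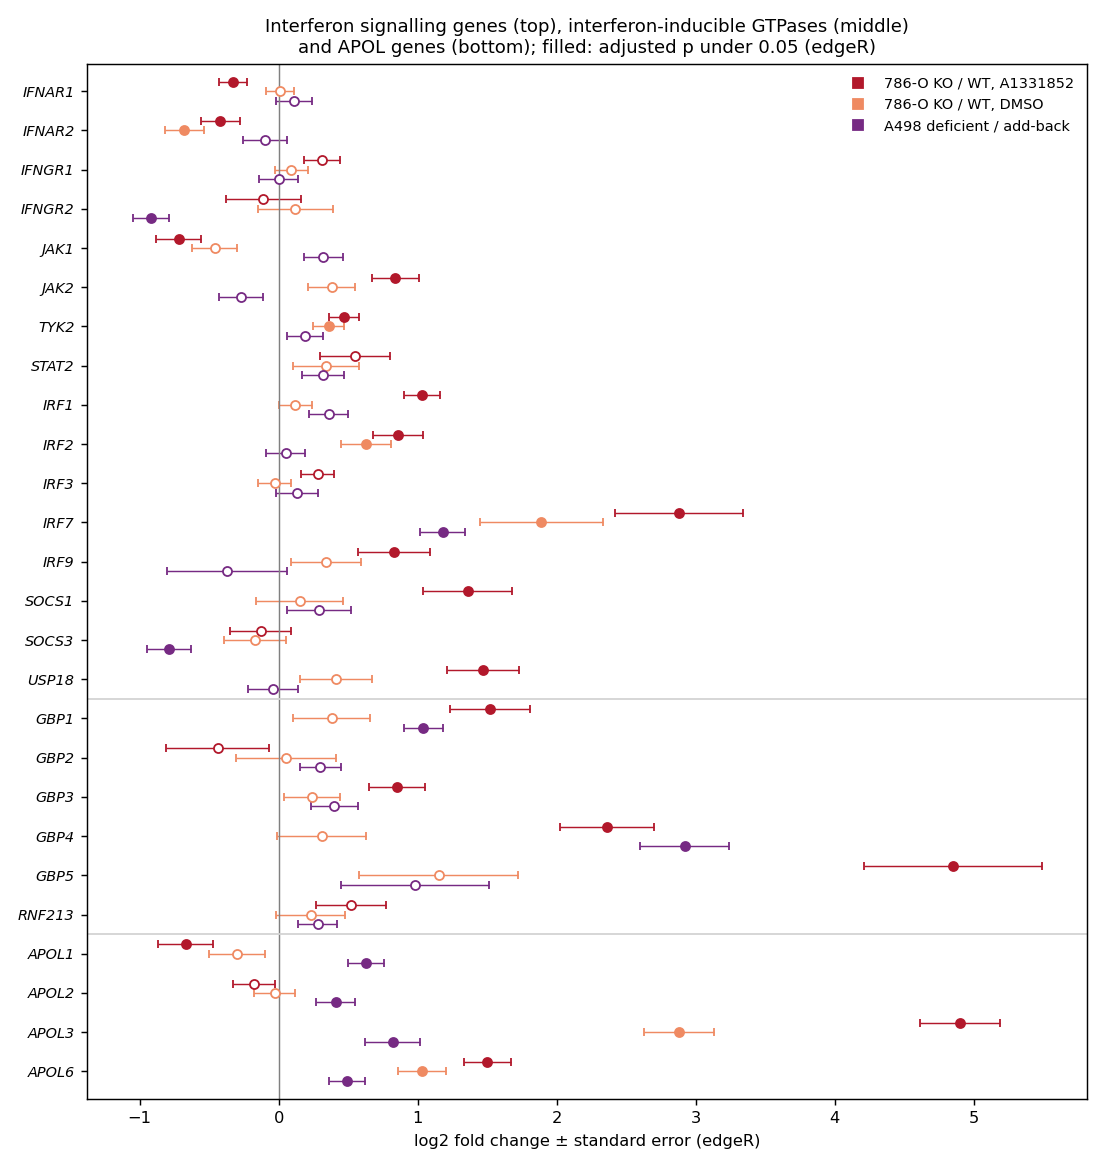
Log2 fold change with standard error (edgeR) of 16 interferon signalling genes, 6 interferon-inducible GTPases and 4 APOL genes for 786-O KO against WT in A1331852 and in DMSO and for A498 deficient against add-back; filled points had an adjusted p under 0.05. GBP5 at 4.85 and APOL3 at 4.90 were the largest values shown for the A1331852 comparison.

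The other apolipoproteins are lipid carriers or mitochondrial proteins outside the APOL family. Of 16 listed, 4 were tested in 786-O and 6 in A498. APOE rose by 1.62 ± 0.40 in KO against WT cells under A1331852 (edgeR adjusted p = 0.0111), a call lost without WT A1331852 replicate 2, where it stood at 1.45. With 1 of 4 called, 28.2% of all genes were called there. It was the only one called in 786-O, as 0 were called in the other 3 comparisons or in the difference of responses, with 0 or 1 at an unadjusted p under 0.05. In A498, APOH rose by 2.05 ± 0.48 (adjusted p = 0.00534), APOM rose by 1.37 ± 0.44 (adjusted p = 0.0288) and the mitochondrial APOOL fell by 0.80 (adjusted p = 0.00141) in deficient cells by edgeR, 3 of 6 called beside 30.2% of all genes. The call of APOM in A498 was lost in 4 of 8 alternatives, and that of APOH without deficient replicate 1, where it stood at 1.24. APOM also differed between the lines, by 1.36 ± 0.40 (edgeR adjusted p = 0.0354), a call lost in 12 of 21 alternatives. APOLD1, a relative on chromosome 12, was not called in any comparison and ranged in log2 change between -0.83 and 0.71.

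Genes within 1 Mb of the APOL span on either side numbered 79, of which 18 were tested in 786-O and 17 in A498. Under A1331852, 4 rose and 1 fell in KO against WT cells, 5 of 18 called beside 28.2% of all genes, and 6 rose and 2 fell with the block within treatments. HMOX1, the heme-degrading enzyme heme oxygenase 1, rose by 1.43 ± 0.23 (edgeR adjusted p = 0.000851), and FOXRED2 rose by 0.74 ± 0.19 (adjusted p = 0.0123), a call lost in 3 of 19 alternatives, without KO A1331852 replicate 2 among them. MYH9, the non-muscle myosin heavy chain gene nearest to APOL1 among those tested, had a log2 change of -0.27 ± 0.12 and was not called. RBFOX2, a splicing factor gene lying between APOL6 and APOL3, had 0.11 ± 0.15 and was not called. MYH9 and RBFOX2 were picked after their values were seen.

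Under DMSO, 3 neighbours rose in KO cells, FOXRED2 (0.86 ± 0.19, edgeR adjusted p = 0.0076), C1QTNF6 and TXN2, and CSF2RB fell, 4 of 18 called beside 18.5% of all genes. The calls of C1QTNF6, TXN2 and CSF2RB were each lost in 7 or 8 of 19 alternatives. In KO cells HMOX1 rose by 1.47 ± 0.29 with A1331852 against DMSO (edgeR adjusted p = 0.00783), among 3 neighbours that rose and 1 that fell, 4 of 18 called beside 13.5% of all genes, and 0 were called in WT cells, where 3 had an unadjusted p under 0.05. That call of HMOX1 was lost without KO DMSO replicate 3, without a batch term and in batch 1 alone, where it lay between 0.90 and 1.53. In the difference of responses 0 were called and 1 had an unadjusted p under 0.05. In A498, 3 rose and 4 fell in deficient cells, 7 of 17 called beside 30.2% of all genes, with HMOX1 up by 1.54 ± 0.12 (edgeR adjusted p = 4.53e-07) and KCTD17 down by 1.04 (adjusted p = 0.00035). Between the lines HMOX1 differed by 1.45 ± 0.31, C1QTNF6 by -0.85 ± 0.20 and KCTD17 by -0.92 ± 0.24, 1 higher and 2 lower of 19 tested, where 13.2% of all genes were called (edgeR adjusted p = 0.00681, 0.00988 and 0.02). The calls were lost in 1, 1 and 5 of 21 alternatives.

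**Figure D5:**
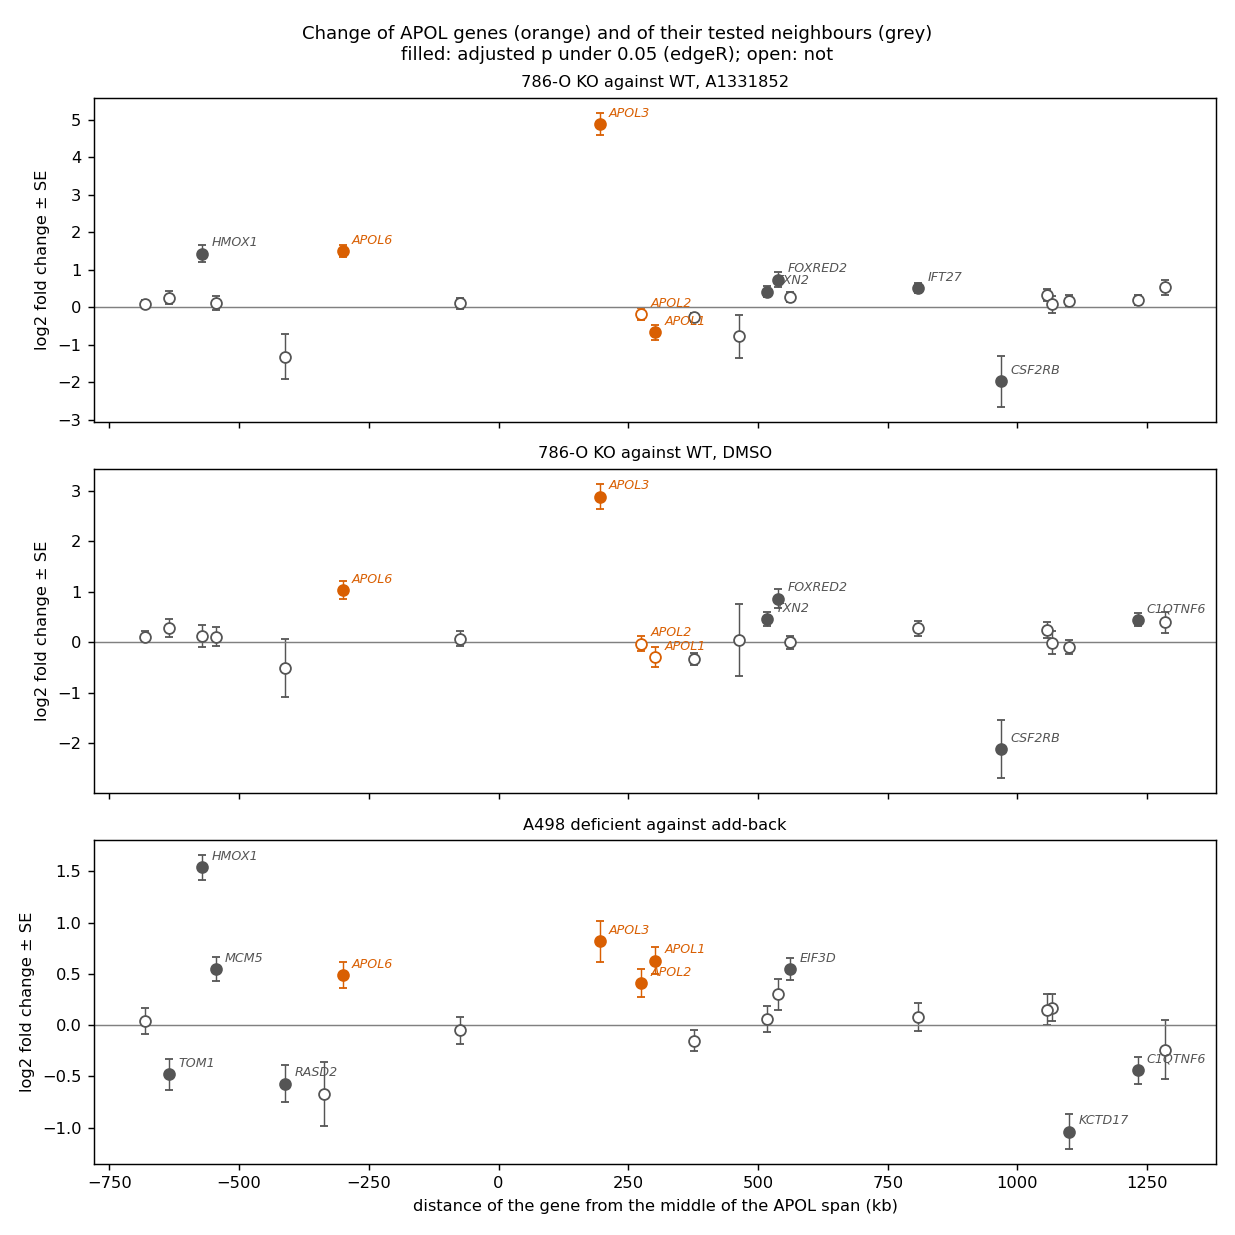
Log2 fold change with standard error (edgeR) of APOL genes (orange) and of tested genes within 1 Mb (grey), against distance from the middle of the APOL span. Filled points had an adjusted p under 0.05. All APOL genes shown and the filled neighbours are named. Of the neighbours, 5 of 18 were filled in A1331852, 4 of 18 in DMSO and 7 of 17 in A498. HMOX1 stood at 1.43 in A1331852 and 1.54 in A498.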

How the data were processed

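The authors deposited raw counts, 1 table per library of fragments per gene name. Per the file headers these came from featureCounts 1.5.0-p3 with reverse-strand setting 2 and GENCODE release 41, and STAR and MultiQC 1.7 are named in the submitters' processing notes with GRCh38. Strand was used and exons were summed by gene. How fragments from sequence shared between genes were counted was not examined. From the deposited counts, edgeR 4.0.16 in R 4.3.3 gave TMM-scaled CPM, a low-count filter by group (minimum count of 10), and quasi-likelihood tests, and a gene was called where its Benjamini-Hochberg p over the whole table was under 0.05. A model with a batch term held the 12 libraries of 786-O, another the 4 of A498, and all 16 entered the difference between lines. DESeq2 1.42.0 was an alternative, and the edgeR fit was tested on simulated data. Those data had the same spread setting for every gene and no batch effect, a simpler case than these libraries.

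Members and lists were chosen with earlier results of these data known. Genes named were SETD2, the APOL genes and APOLD1, per member the 5 genes with the highest Pearson r of log2 CPM (prior count of 2), and per list up to 4 called genes with the smallest adjusted p in each comparison. Values of other genes given for a list or the neighbours (APOLD1's range, IFNAR1, JAK1, MYH9 and RBFOX2) were picked after their values were seen. A signalling gene and a marker that count in their lists are not reported here by name.

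Deviations from the group mean of same-numbered KO and WT libraries had correlations between 0.572 and 0.768 (DMSO) and between 0.272 and 0.509 (A1331852). Differently numbered libraries within DMSO batch 2 had 0.569 and 0.604, about as high, and in A1331852 at most 0.224. Pairs entered only the alternative fits with a replicate block, while the main fits of KO against WT held a batch term and no pairing. Replicate numbers did not pair A1331852 with DMSO (-0.0451 to 0.055) or the A498 groups (0.0967). Replicates of a group differed by a mean chi-square of 3.16 to 131 per gene, with 1 expected from sampling. DMSO replicates 1 and 2, both of batch 2, gave 3.16 in KO and 3.72 in WT cells. Against DMSO replicate 3 of batch 1 they gave 92.1 to 131. Each library counted as 1 sample, although the labels do not say whether the batch 2 replicates were separate cultures. Counting intervals are exact at 95%, and no molecular identifiers were used. RefSeq sequence tables used here held no entry for the members.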

Additional observations from a re-analysis of the deposited data

Results flagged for a closer look

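In 3 results the SETD2 contrasts differed between the lines by the edgeR test of the difference itself, A498 deficient over add-back minus 786-O KO over WT in DMSO. APOL1 gave 0.95 ± 0.30, from log2 changes of 0.63 ± 0.13 in A498, called, and -0.30 ± 0.20 in 786-O, not called, and the call of the difference was lost in 13 of 16 omissions of a single library. APOL3 gave -2.02 ± 0.36, as it was 1.76-fold higher in A498 deficient and 7.36-fold higher in 786-O KO cells. SETD2 gave 1.24 ± 0.29, from a log2 change of 0.00 ± 0.17 in A498, not called, and a 2.31-fold lower level in 786-O KO cells. The values of APOL1 and APOL3 may have been among those that led to their choice.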

How the results depend on the processing

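Of 488 alternatives of the 28 member log2 changes, 461 moved them by less than 1 SD and 27 by 1 SD or more, and no called change turned its sign. That SD is not the SE printed with the changes, and a shift beyond the SE could count as within it. For KO against WT in DMSO, APOL3 went from 2.88 ± 0.25 to 2.59 without WT DMSO replicate 3 and counted as within 1 SD. For A1331852 against DMSO in KO cells, 2 members were called, against 0 without a batch term, 0 in batch 1 alone and 1 to 2 with single libraries left out. For the difference of responses the count of 0 became 1 without the low-count filter, 1 with DESeq2, 1 with a replicate block and 1 with the replicate block within treatments, and was 0 to 1 with single libraries left out. In A498 it was 1 to 4 with single libraries left out. Between the lines the count of 2 was 1 with RLE size factors, 0 without a batch term and 1 to 2 with single libraries left out. Summed over the 7 comparisons, interferon signalling calls were 25, against 47 with the replicate block, 14 without a batch term and 16 to 31 with single libraries left out. GTPase calls were 10, against 19 without the filter, 19 with the replicate block and 7 to 14 with single libraries left out. Calls of other apolipoproteins were 5, against 8 with the replicate block and 3 to 8, and calls of neighbours were 23, against 36 with the replicate block, 12 without a batch term and 15 to 26, with single libraries left out. The order of groups was kept for 3 of 5 members on raw library totals. The replicate block changed no other count of called members. Over all genes, calls between KO and WT cells in DMSO were 3001, against 4862 with the replicate block, 4646 with it within treatments, 1490 without a batch term and 9276 in batch 2 alone. In A1331852 they were 4588, against 2489 without a batch term and 2376 in batch 1 alone. For A1331852 against DMSO they were 2201 in KO cells, against 4311 with the block and 85 in batch 1 alone, and 23 in WT cells, against 909 without the filter, 415 with DESeq2, 2831 with the block, 6 without a batch term and 0 in batch 1 alone. For the difference of responses they were 48, against 647 without the filter, 371 with DESeq2, 334 with the block, 294 with it within treatments, 7 without a batch term and 0 in batch 1 alone. Between the lines they were 2362, against 3972 with the block and 1067 without a batch term. With single libraries left out these counts ran over 1614 to 4363 and 3417 to 5455 between KO and WT cells in DMSO and in A1331852, 592 to 3593 and 0 to 64 for A1331852 in KO and in WT cells, and 1151 to 3326 between the lines, with 0 as the lowest for the difference of responses. In A498 they ran over 2246 to 6272, against 4657. The causes of these shifts were not tested. APOL4 at 0 to 7 counts per library was too low for a fold change to be fitted after filtering.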
